A study of Mus musculus with 5 samples.

Results

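The genes described here are 10 members of the major histocompatibility complex (MHC) antigen presentation pathway, chosen by gene symbol: H2-Aa, H2-Ab1, H2-Eb1, Cd74 and Ciita of the class II route, and H2-K1, H2-D1, B2m, Tap1 and Psmb8 of the class I route. All 10 were found, among 24563 genes named on the arrays, and they are covered by 13 of 39414 probes. Each also has a row in the gene table deposited by the authors. RNA from mouse tissue was labelled with Cy3 and hybridised to 5 one-colour Agilent arrays to follow genes of kidney development in kidney bud transplants and in kidneys. Every tissue is labelled C57BL/6, a mouse strain of the H-2b haplotype, and no group carries a mutation or drug treatment in its labels. The transplants are tissue taken 2 weeks and 4 weeks after a kidney bud was transplanted, and the kidneys are from E13.5 embryos, from newborns (P0) and from mice aged 8 weeks. Bud make-up, host and graft site were not given in these sources, so host cells in the transplants cannot be set apart from bud cells. Each group is 1 array, so there is no spread between samples and no test. The number of arrays limits the precision.

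MHC class I molecules sit on nearly all nucleated cells and show peptides cut by the proteasome in the cytosol to cytotoxic T cells. MHC class II molecules are made mainly by dendritic cells, macrophages, B cells and thymic epithelium, and show peptides from endocytosed proteins to helper T cells. Interferon gamma induces both routes, through the transactivator NLRC5 for class I and CIITA for class II, and in the kidney it can bring class II onto tubular epithelium.

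Values are log2 of the spot intensity relative to the 75th percentile of its array, called the level, and they compare arrays for 1 probe, never one probe with another. The percentile ranged from 1170.2 to 1720.1 intensity units over the arrays, 60.9% to 69.1% of spots were well above background, and the median SD over spots of the same probe was 0.058 to 0.0748 (log2). One slide carried the 2-week transplant with the E13.5 kidney, and the other slide carried the 4-week transplant with the P0 and 8-week kidneys. Comparisons within a slide are therefore 2-week transplant against E13.5 kidney, 4-week transplant against P0 and 8-week kidney, and 8-week against P0 kidney. In all others, group and slide cannot be told apart. The comparisons of both transplants with a kidney use the same kidney array and are not independent.

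The probe of H2-Ea, a gene of this family, gave a signal on the 8-week kidney array that the strain label does not predict. H2-Ea encodes the E alpha chain, which H-2b strains such as C57BL/6 do not transcribe because the gene's promoter region is deleted. Its probe had a level of -1.96 in the 8-week kidney, well above background, against -8.16 in the 2-week transplant, -7.88 in the 4-week transplant, -7.70 in the E13.5 kidney and -7.49 in the P0 kidney, where it was not well above background. The gene was chosen after its values were seen. Every comparison with the 8-week kidney rests on that array, and what part this has in them was not tested. Comparisons of the transplants with the E13.5 and P0 kidneys do not use it.

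The proximal promoters of MHC genes are known for an X box, a CRE-like X2 box and a Y box, which bind RFX, CREB and NF-Y and recruit CIITA or NLRC5. RefSeq promoter windows (GRCm38.p6, 250 bases before the start) were held for 7 members, and H2-Ab1, Cd74 and Ciita are named only. The Y box letters CCAAT or ATTGG were in 6 of these 7 windows, all but that of Psmb8, and in 34.5% of the windows of 27025 genes. The CRE core TGACG or CGTCA was in 5 of 7, against 17.9% of all genes, and the X core GCAACNG or CNGTTGC was in H2-Eb1 only, against 10.2%. TGACG followed 24 to 27 bases later by ATTGG was in 4 of 7 members and in 35 of 27025 genes (0.13%). This spacing was chosen after the letters had been seen. The 200 bases before the start are shown for the members that carry these letters close to it, the 4 with this spacing and H2-Eb1, with both strands searched and matches of the X core, the CRE core and the Y box in capitals. In H2-Aa the TGACG and CGTCA matches overlap.
H2-Aa, chr17:34287824-34288023, minus strand: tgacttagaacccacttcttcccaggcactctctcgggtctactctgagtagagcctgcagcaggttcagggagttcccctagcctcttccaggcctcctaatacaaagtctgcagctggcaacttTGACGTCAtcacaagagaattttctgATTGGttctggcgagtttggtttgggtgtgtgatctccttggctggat
H2-Eb1, chr17:34305667-34305866, plus strand: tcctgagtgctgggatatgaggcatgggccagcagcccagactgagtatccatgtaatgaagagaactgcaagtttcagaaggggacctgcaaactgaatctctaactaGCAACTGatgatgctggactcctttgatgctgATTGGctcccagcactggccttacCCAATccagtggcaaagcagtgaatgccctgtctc
H2-K1, chr17:34000348-34000547, minus strand: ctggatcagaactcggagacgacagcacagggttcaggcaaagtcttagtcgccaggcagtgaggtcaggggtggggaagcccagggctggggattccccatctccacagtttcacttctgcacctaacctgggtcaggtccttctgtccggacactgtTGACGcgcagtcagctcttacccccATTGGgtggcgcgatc
H2-D1, chr17:35262894-35263093, plus strand: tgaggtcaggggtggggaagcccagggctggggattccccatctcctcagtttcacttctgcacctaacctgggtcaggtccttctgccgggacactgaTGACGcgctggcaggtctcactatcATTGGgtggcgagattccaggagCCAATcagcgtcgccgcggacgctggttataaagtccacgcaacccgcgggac
B2m, chr2:122147487-122147686, plus strand: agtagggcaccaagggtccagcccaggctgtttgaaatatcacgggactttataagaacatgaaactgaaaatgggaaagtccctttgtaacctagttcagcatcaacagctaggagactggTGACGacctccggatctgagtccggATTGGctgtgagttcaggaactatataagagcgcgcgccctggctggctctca
The start of TGACG and of ATTGG was 26 bases apart in H2-Aa (positions -74 and -48) and 25 bases apart in H2-K1 (-41 and -16), H2-D1 (-101 and -76) and B2m (-78 and -53). H2-K1 has 2 start sites in the table and the window shown is that of the one listed first. The core of the interferon-stimulated response element (ISRE) was in B2m only (position -139; 3.04% of all genes), and the gamma-activated core TTCNNNGAA in Psmb8 only (position -97; 7.18%). These are letter matches, not measured binding sites.

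The class II chains were high in both transplants, lower in the 8-week kidney and low in the E13.5 and P0 kidneys. H2-Aa (gene 14960, chromosome 17), the A alpha chain, had levels of 0.96 in the 2-week and 0.85 in the 4-week transplant, against -6.84 in the E13.5, -5.79 in the P0 and -1.56 in the 8-week kidney. The E13.5 and P0 values, 14.1 and 31.1 intensity units, were not well above background, so differences of brighter arrays from them are given as lower bounds. H2-Ab1 (gene 14961, chromosome 17), the A beta chain, had levels of 6.00 in the 2-week and 6.11 in the 4-week transplant, against 0.50 in the E13.5, 2.39 in the P0 and 4.13 in the 8-week kidney. Its other probe gave 5.79 and 5.94 in the 2-week and 4-week transplants, against 0.34, 2.16 and 3.85 in the E13.5, P0 and 8-week kidneys, the same order. H2-Eb1 (gene 14969, chromosome 17), the E beta chain, had levels of 6.00 in the 2-week and 6.32 in the 4-week transplant, against -0.01 in the E13.5, 0.59 in the P0 and 4.60 in the 8-week kidney. In all 3 chains the transplants were the highest arrays and the 8-week kidney came next.

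Cd74 (gene 16149, chromosome 18), the invariant chain that fills the class II groove until a peptide is loaded, followed the chains. Its level was 4.63 in the 2-week and 4.85 in the 4-week transplant, against -2.70 in the E13.5, -2.37 in the P0 and 2.79 in the 8-week kidney. Ciita (gene 12265, chromosome 16), the transactivator of class II genes, did not follow them in size or order. Its level was -3.89 in the 2-week and -3.62 in the 4-week transplant, against -4.33 in the E13.5, -4.97 in the P0 and -3.73 in the 8-week kidney. Its probe was well above background on all 5 arrays but dim, at 115 and 123 intensity units in the 2-week and 4-week transplants against 80.8, 54.8 and 88.4 in the E13.5, P0 and 8-week kidneys. Ciita spanned 1.36 on the log2 scale over the 5 arrays, against 5.61 to 7.81 in the other class II members. The 2-week transplant lay below the 8-week kidney and the 4-week transplant above it, by -0.17 and 0.11. In the authors' deposited table, which carries no shift between arrays, Ciita was 0.38 in the 2-week and 0.47 in the 4-week transplant, against 0.00 in the 8-week kidney, so the order turned there.

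The class I members were also highest in the transplants, and most were already higher at P0. H2-K1 (gene 14972, chromosome 17), a classical class I heavy chain, has 3 probes, and the 1 used here was read by 10 spots. Its level was 5.58 ± 0.038 in the 2-week and 6.23 ± 0.048 in the 4-week transplant, against -0.12 ± 0.049 in the E13.5, 2.04 ± 0.034 in the P0 and 3.66 ± 0.038 in the 8-week kidney (SD over spots of the array, which leaves out differences between animals). H2-D1 (gene 14964, chromosome 17), the other classical heavy chain of this haplotype, had levels of 5.20 in the 2-week and 5.34 in the 4-week transplant, against -1.96 in the E13.5, 1.25 in the P0 and 4.07 in the 8-week kidney. B2m (gene 12010, chromosome 2), the light chain that every class I molecule needs, had levels of 6.07 in the 2-week and 6.48 in the 4-week transplant, against 2.56 in the E13.5, 3.97 in the P0 and 5.37 in the 8-week kidney. B2m spanned the least of the class I members. By the probes used, these genes gave the same order of arrays, from E13.5 kidney at the bottom to 4-week transplant at the top. Another, dimmer probe of H2-K1 put the 4-week transplant (0.97) below the 2-week transplant (1.64).

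Tap1 and Psmb8 lie beside each other in the MHC and serve peptide supply, as a subunit of the transporter that carries peptides into the endoplasmic reticulum and as a catalytic subunit of the immunoproteasome. Tap1 (gene 21354, chromosome 17; 8 spots) had levels of -1.29 ± 0.092 in the 2-week and -1.20 ± 0.051 in the 4-week transplant, against -6.18 ± 0.367 in the E13.5, -3.64 ± 0.052 in the P0 and -3.87 ± 0.099 in the 8-week kidney (SD over spots). The E13.5 value was not well above background. Psmb8 (gene 16913, chromosome 17) had levels of 2.03 in the 2-week and 2.51 in the 4-week transplant, against -3.89 in the E13.5, -1.06 in the P0 and -0.38 in the 8-week kidney. For both genes the P0 and 8-week kidneys lay close together, and both transplants stood above them.

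**Figure D1:**
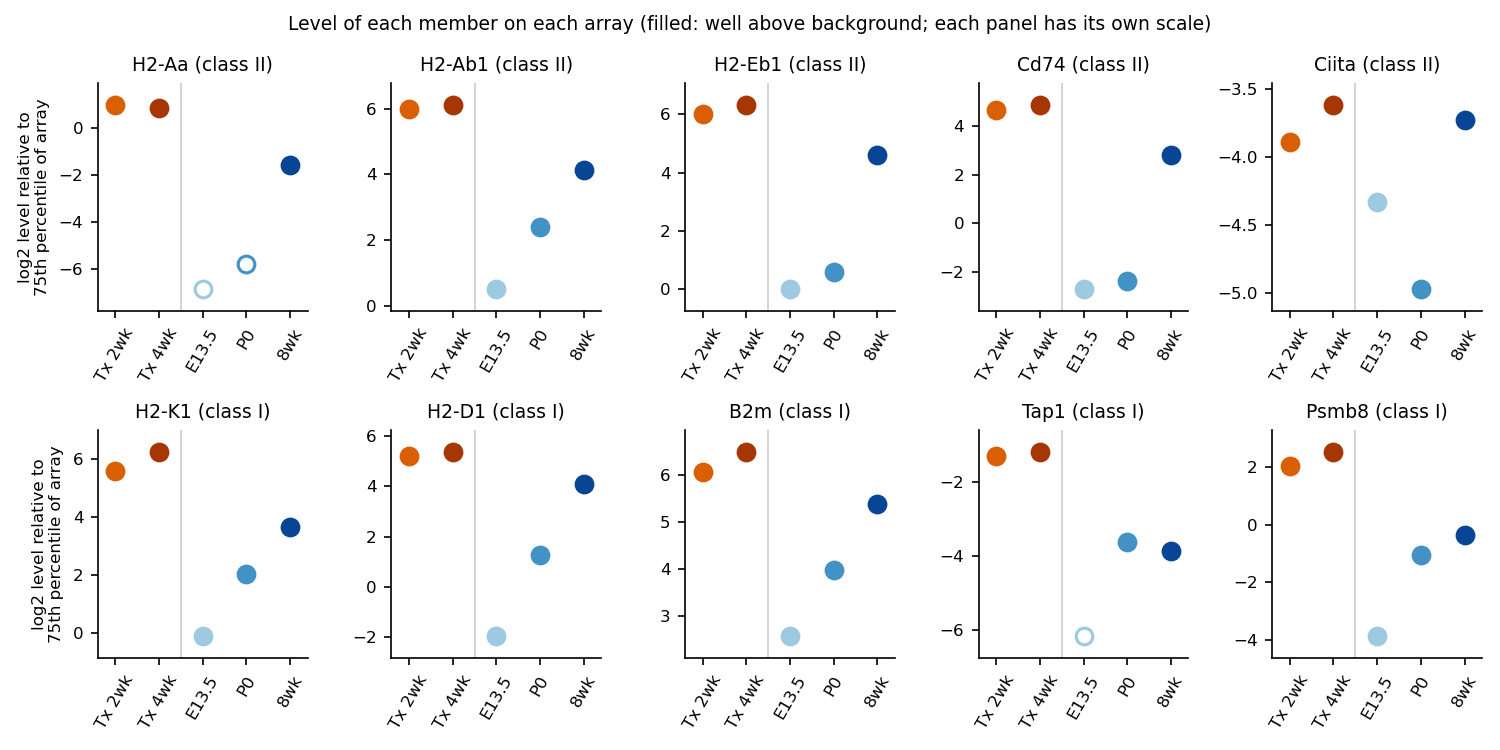
Level of the 10 members (log2 intensity relative to the 75th percentile of the array) on each of the 5 arrays, 1 panel per gene with its own vertical scale, with transplants (Tx, orange) left of the kidneys (blue). Filled points were well above background and open points were not. Both transplants lie above all 3 kidneys in 9 of 10 panels, the exception being Ciita, where the 2-week transplant (-3.89) lies below the 8-week kidney (-3.73).

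Both transplants had higher levels than all 3 kidneys for 9 of 10 members, all but Ciita, a pattern held by 16.5% of 19366 genes. Without the 8-week kidney, both transplants lay above the E13.5 and P0 kidneys for 10 of 10 members, against 27.8% of genes. Against the E13.5 kidney, 9 of 10 members were at least 4-fold higher in the 2-week transplant, where 11.3% of 18264 genes were, and 9 of 10 were in the 4-week transplant, where 12.7% of 18320 genes were. Among folds measured on both sides the highest were those of Cd74, at 161 in the 2-week and 188 in the 4-week transplant, and of H2-D1, at 143 and 158. H2-K1 was 52.1-fold and 82.0-fold higher in the 2-week and 4-week transplants, H2-Eb1 64.3-fold and 80.4-fold, Psmb8 60.7-fold and 84.2-fold, H2-Ab1 45.2-fold and 49.0-fold, and B2m 11.4-fold and 15.1-fold. H2-Aa was at least 116-fold and at least 107-fold higher, and Tap1 at least 24.3-fold and at least 26.0-fold. Such a bound sets the bright array against the higher of the dim probe's own level and the lowest level well above background on its array. In bulk tissue, fewer cells of a type and less RNA per cell cannot be told apart.

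Ciita was the member below 4-fold, with differences from the E13.5 kidney of 0.43 in the 2-week and 0.71 in the 4-week transplant (log2). These turned to -2.18 and -2.0 under normexp background correction, whose fitted background mean was -992 on the E13.5 array and 20.7 to 27.47 on the others. Tap1 enters at its bound, which was not allowed to turn the direction. Under the same setting Tap1 was 0.00 and 0.03 above the E13.5 kidney in the 2-week and 4-week transplants. With negative control spots setting the background, Tap1 was 3.15 and 3.20 above it.

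Relative to the E13.5 kidney the class II and class I members differed by like amounts. The median log2 difference was 6.01 for class II and 5.70 for class I in the 2-week transplant, and 6.33 and 6.36 in the 4-week transplant, beside medians of -0.11 and -0.02 over all genes. Tap1 enters at its bound, and under normexp class II was ahead by 1.55 and 1.21. Relative to the P0 kidney the classes parted. The class II median was 5.41 in the 2-week and 5.73 in the 4-week transplant, and the class I median 3.09 and 3.57, which leaves class II ahead by 2.31 and 2.16. The 4-week value is a comparison within a slide, and it ran from 1.21 to 2.38 over the other settings.

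Against the P0 kidney, 9 of 10 members were again at least 4-fold higher in each transplant, where 6.85% of genes were in the 2-week and 8.66% in the 4-week transplant. Cd74 was 128-fold and 149-fold higher in the 2-week and 4-week transplants, H2-Aa at least 108-fold and at least 99.5-fold, and H2-Eb1 42.4-fold and 53.1-fold. H2-Ab1 was 12.2-fold and 13.2-fold higher, nearer to the class I heavy chains, which were 11.6-fold and 18.2-fold (H2-K1) and 15.4-fold and 17.1-fold (H2-D1) higher. Psmb8 was 8.54-fold and 11.9-fold higher, Tap1 5.08-fold and 5.43-fold, and B2m 4.28-fold and 5.70-fold. Ciita was 2.11-fold and 2.56-fold higher. The larger class II median came from H2-Aa, H2-Eb1 and Cd74, while H2-Ab1 and Ciita lay lower.

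Against the 8-week kidney the differences were smaller and alike in the classes. At least 4-fold higher were 3 of 10 members in the 2-week transplant (H2-Aa, Tap1 and Psmb8), where 11.8% of genes were, and 5 of 10 in the 4-week transplant (these 3, H2-K1 and Cd74), where 11.7% were. Psmb8 was 5.34-fold higher in the 2-week and 7.42-fold higher in the 4-week transplant, Tap1 5.97-fold and 6.38-fold, and H2-Aa 5.75-fold and 5.31-fold. H2-K1 was 3.77-fold and 5.94-fold higher, Cd74 3.57-fold and 4.16-fold, H2-Ab1 3.66-fold and 3.97-fold, and H2-Eb1 2.63-fold and 3.29-fold. Averaged over its 3 probes, H2-K1 was 1.5 higher (log2) in the 4-week transplant, below 4-fold. The smallest differences were those of H2-D1, at 2.20-fold and 2.43-fold, B2m, at 1.62-fold and 2.16-fold, and Ciita.

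The median log2 difference from the 8-week kidney was 1.84 for class II and 1.92 for class I in the 2-week transplant, and 1.99 and 2.57 in the 4-week transplant. Class II minus class I was therefore -0.08 and -0.58. The value at 4 weeks turned to 0.54 when the probes of each gene were averaged and to 0.12 under normexp, so no order of the classes is given against this array. Class II members sat close to the 4-fold line, and 4 of 5 were past it in each transplant under quantile normalization.

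Between the transplants all 10 members were within 2-fold, and none of them was at least 4-fold higher at 4 weeks, where 2.44% of 18493 genes were. The log2 difference, 4-week minus 2-week transplant, ran from -0.11 for H2-Aa to 0.65 for H2-K1, with a class II median of 0.22 and a class I median of 0.41. For H2-K1 the probes disagreed. The other probes gave differences of 0.45 and -0.66, so its direction between the transplants depends on the probe. These arrays lie on different slides.

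Over the kidney ages most class I members differed more between E13.5 and birth, and most class II members between birth and 8 weeks. For B2m the earlier and later intervals were alike, at 1.41 and 1.40 (log2), and H2-D1 differed by 3.21 and 2.81. The kidneys stood in the order E13.5, P0, 8-week from low to high for 7 of the 9 members for which both steps were measured, all but Ciita and Tap1, against 26.4% of 17051 genes. H2-Aa was left out of this count because it was dim in both younger kidneys. In the P0 kidney, 4 of 5 class I members were at least 4-fold higher than in the E13.5 kidney, where 6.24% of genes were, and none of the class II members was. H2-D1 was 9.26-fold higher in the P0 than in the E13.5 kidney, Psmb8 7.10-fold, Tap1 at least 4.79-fold, H2-K1 4.50-fold and B2m 2.66-fold. In class II, H2-Ab1 was 3.70-fold higher in the P0 kidney, H2-Eb1 1.52-fold and Cd74 1.26-fold, and Ciita was 1.57-fold lower. H2-Aa was not well above background in either kidney.

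Between the 8-week and P0 kidneys the larger differences were in class II. Cd74 was 35.7-fold higher in the 8-week kidney than at P0, H2-Aa at least 18.7-fold and H2-Eb1 16.1-fold. H2-Ab1 was 3.34-fold and Ciita 2.37-fold higher. In class I, H2-D1 was 7.04-fold higher in the 8-week kidney, H2-K1 3.07-fold, B2m 2.64-fold and Psmb8 1.60-fold, while Tap1 was 1.18-fold lower. At least 4-fold higher were 3 of 5 class II members and 1 of 5 class I members, where 8.93% of 17658 genes were.

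In the P0 minus E13.5 difference the class II median was 0.47 over 4 measured members and the class I median was at least 2.26, so class II minus class I was -1.79. In the 8-week minus P0 difference, within a slide, they were 4.01 and 1.40, so class II minus class I was 2.61. Over the other settings these 2 contrasts ran from -2.22 to -1.63 and from 1.15 to 2.61. Both comparisons use the P0 array, on opposite sides. H2-Ab1 was the exception in class II, with differences of 1.89 in the earlier and 1.74 in the later interval. Under normexp 2 of 5 class I members were at least 4-fold higher in the P0 than in the E13.5 kidney, and 1 class II member was at least 4-fold different.

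**Figure D2:**
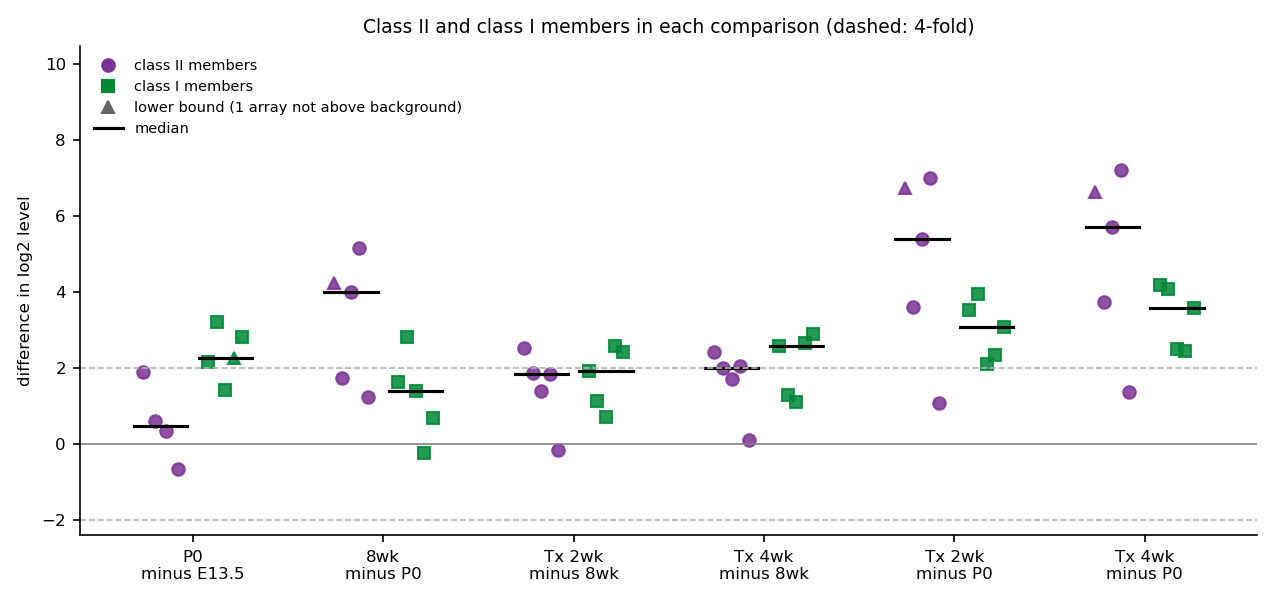
Difference in log2 level of each class II member (purple) and class I member (green) in 6 comparisons, the group named on the upper line minus the one below, with medians as black bars and 4-fold as dashed lines. Triangles are lower bounds. The class I median lies above the class II median in the P0 minus E13.5 difference (2.26 and 0.47), and the order is the other way in the 8-week minus P0 difference (1.40 and 4.01).

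Nlrc5, the class I transactivator, showed a wide range where Ciita showed a narrow one. The level of Nlrc5 was -1.33 in the 2-week and -0.58 in the 4-week transplant, against -8.19 in the E13.5, -5.82 in the P0 and -3.17 in the 8-week kidney, of which the E13.5 value was not well above background. It was 22.4-fold and 37.8-fold higher in the 2-week and 4-week transplants than in the P0 kidney, and 3.58-fold and 6.04-fold higher than in the 8-week kidney. Its other, dimmer probe gave -4.26 and -5.84 in the transplants, against -6.02 in the P0 kidney, not well above background, and -4.97 in the 8-week kidney, so the 4-week transplant lay below the 8-week kidney. The direction against the 8-week kidney at 4 weeks therefore depends on the probe. The 3 RFX subunits bind the X box of both classes. Against the E13.5 kidney Rfx5 was 3.47-fold lower in the 2-week and at least 3.37-fold lower in the 4-week transplant, Rfxap 1.72-fold and 2.13-fold lower, and Rfxank 1.63-fold and 1.40-fold lower. Against the 8-week kidney Rfxap was 1.97-fold and 1.59-fold higher, and Rfxank 2.03-fold and 1.75-fold lower. Rfx5 had levels of -6.03 in the 2-week and -6.53 in the 4-week transplant, against -5.90 in the 8-week kidney, and was well above background only in the first of these.

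The proteasome subunits split by type. Immunoproteasome subunits replace constitutive ones and favour peptides that fit class I grooves. Psmb9 had levels of 2.20 in the 2-week and 2.83 in the 4-week transplant, against -3.48 in the E13.5, -1.15 in the P0 and -0.02 in the 8-week kidney. Psmb10 had levels of 4.32 and 4.33 in the 2-week and 4-week transplants, against 2.28, 2.64 and 2.26 in the E13.5, P0 and 8-week kidneys. Relative to the 8-week kidney, all 3 immunoproteasome subunits were at least 4-fold higher in both transplants, Psmb9 by 4.67-fold and 7.20-fold and Psmb10 by 4.16-fold and 4.20-fold. The other probe of Psmb9 was not well above background on any array, and averaged over both probes Psmb9 differed by 0.73 and 1.18 (log2), below 4-fold. Of the constitutive subunits they replace, Psmb5 was 2.63-fold and 2.09-fold lower in the 2-week and 4-week transplants than in the 8-week kidney, and Psmb7 2.09-fold and 1.83-fold lower. Psmb6 differed by -0.47 and -0.35 (log2), and these turned to 0.17 and 0.09 under quantile normalization and to 0.08 and 0.02 in the authors' deposited table. Psmb5 and Psmb7 stayed lower under all settings tried.

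**Figure D3:**
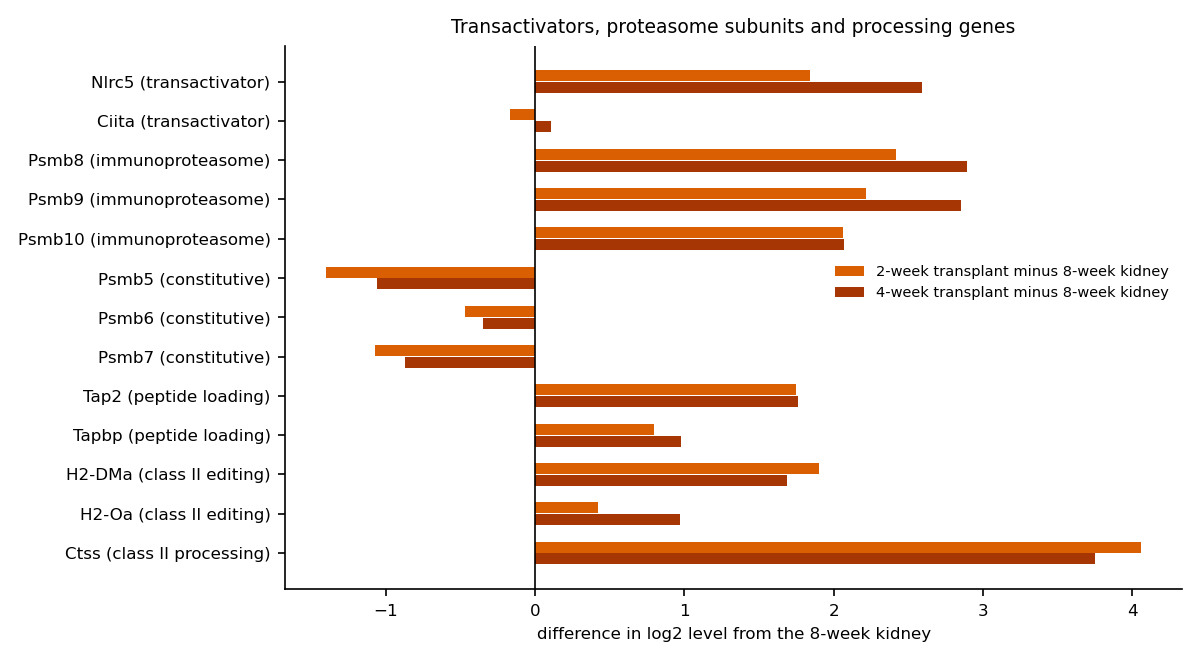
Difference in log2 level from the 8-week kidney of transactivators, proteasome subunits and processing genes, with the 2-week transplant above the 4-week transplant in each pair of bars, which start at 0. Immunoproteasome subunits lie at 2.06 or more and the constitutive subunits Psmb5, Psmb6 and Psmb7 between -1.40 and -0.35, while Ciita lies near 0.

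Of 17 other class I pathway genes, 10 were at least 4-fold higher in the 2-week transplant and 11 in the 4-week transplant than in the E13.5 kidney, where 11.3% and 12.7% of all genes were, with medians of 3.07 and 3.42 (log2). Against the 8-week kidney 4 and 7 of 17 were, where 11.8% and 11.7% of all genes were, with medians of 0.78 and 1.01, and 1 was at least 4-fold lower in the 4-week transplant, where 7.8% of all genes were, Psme3 (4.89-fold), an activator of nuclear proteasomes. Tap2, the partner of Tap1, had levels of 3.27 in both transplants, against -3.74 in the E13.5, 0.19 in the P0 and 1.52 in the 8-week kidney. Tapbp, the tapasin that holds empty class I molecules at the transporter, was 4.31-fold and 4.89-fold higher in the 2-week and 4-week transplants than in the P0 kidney, and 1.74-fold and 1.97-fold higher than in the 8-week kidney.

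Non-classical class I genes differed among themselves. H2-M3, which presents bacterial formylated peptides, was 4.46-fold and 4.23-fold higher in the 2-week and 4-week transplants than in the 8-week kidney, and Mr1, which presents vitamin B metabolites, 6.63-fold and 7.32-fold. Under normexp the differences were below 4-fold, at 1.94 and 1.80 for H2-M3 and 1.81 and 1.90 for Mr1 (log2). H2-T23, the Qa-1 molecule seen by NK cell receptors, differed from the 8-week kidney by 0.20 and 0.70 (log2). Cd1d1, which presents lipids, had levels of 1.86 in the 2-week and 3.77 in the 4-week transplant, against 0.07 in the E13.5, 0.01 in the P0 and 0.72 in the 8-week kidney. The chaperones that all glycoproteins share, Calr, Canx and Pdia3, differed by -0.49 to 0.14 in every comparison.

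The other class II pathway genes were less uniform than the class II chains. Of 16, 5 were at least 4-fold higher in each transplant than in the E13.5 kidney, where 11.3% of all genes were at 2 weeks and 12.7% at 4 weeks, with medians of 1.29 and 1.20. Against the 8-week kidney 3 were in each transplant, where 11.8% and 11.7% of all genes were, with medians of 0.64 and 0.67. Those 3 were Ctss, Cd86 and Cd80. These counts are by the probes used. Other probes of Marchf1 and H2-Ob were well above background in both transplants but not in the E13.5 kidney. At 4 weeks 1 gene, Lgmn, was at least 4-fold lower, where 7.8% of all genes were. Ctss, the protease that clears the invariant chain in antigen-presenting cells, had levels of 5.01 in the 2-week and 4.70 in the 4-week transplant, against -0.94 in the E13.5, 0.74 in the P0 and 0.95 in the 8-week kidney, so it was 16.6-fold and 13.4-fold higher than in the 8-week kidney. The costimulatory ligand gene Cd86 was 7.30-fold and 6.33-fold higher in the 2-week and 4-week transplants than in the 8-week kidney, and Cd80 4.34-fold and 5.10-fold. The other probe of Cd86 was not well above background on any array, and averaged over both probes Cd86 differed by 1.0 and 1.26 (log2). Averaged over its probes Cd80 differed by 2.52 and 1.65, the 4-week value below 4-fold, and under normexp by 1.59 and 1.79, both below 4-fold.

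The peptide editors were not alike. H2-DMa was 3.73-fold and 3.23-fold higher in the 2-week and 4-week transplants than in the 8-week kidney, and its partner H2-DMb1 differed by 0.25 and -0.16 (log2). H2-Oa, part of the H2-O inhibitor of H2-DM, was 1.34-fold and 1.95-fold higher. Lgmn, a lysosomal protease, ran the other way, 3.48-fold and 4.07-fold lower in the 2-week and 4-week transplants than in the 8-week kidney. By the probes used, none of these 16 genes was at least 4-fold higher in the 8-week kidney than at P0. The share over all genes was 8.93%. At least 4-fold lower was 1, Cd40 (4.82-fold), a costimulatory receptor, where 9.35% of all genes were. The median was 0.09. For Marchf1 the probes disagreed, at -0.34 by the probe used and 3.51 (log2) by the other, so the count depends on the probe. The other probe of H2-DMb1 ran the opposite way, at -2.42 in the P0 kidney and -7.67, not well above background, in the 8-week kidney. Of the 5 class II members 3 were at least 4-fold higher. Ctss differed between these kidneys by 0.21, Cd86 by 0.07 and H2-DMa by -0.02.

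Of 12 genes of interferon gamma signalling, 5 were at least 4-fold higher in the 2-week and 6 in the 4-week transplant than in the E13.5 kidney, where 11.3% and 12.7% of all genes were. Against the 8-week kidney 4 and 3 were, where 11.8% and 11.7% of all genes were. The medians were 1.61 and 2.04 against the E13.5 kidney and 0.96 and 0.90 against the 8-week kidney. Ifng itself had a level of -5.05 in both transplants, against -7.45, -7.03 and -5.21 in the E13.5, P0 and 8-week kidneys, where it was not well above background. Its difference from the 8-week kidney was therefore at least 0.16 (log2) in each transplant. Cxcl9, a chemokine that interferon gamma induces, had levels of -2.55 in the 2-week and -2.31 in the 4-week transplant by the probe used here, which was not well above background in any kidney. Its other probe had levels of -1.57 and -1.20 in the 2-week and 4-week transplants, against -3.56 in the 8-week kidney, where it was well above background, so by that probe the differences from the 8-week kidney were 1.98 and 2.36 (log2). Whether Cxcl9 was past 4-fold at 2 weeks depends on the probe. Gbp2, an interferon-induced GTPase, was 6.46-fold and 5.76-fold higher in the 2-week and 4-week transplants than in the 8-week kidney, and Irf1, a transcription factor, 4.15-fold and 3.50-fold. The other, dimmer probe of Irf1 had a level of -6.10 in the 2-week transplant, against -5.13 in the 8-week kidney, and averaged over both probes Irf1 differed by 0.54 and 0.24 (log2).

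Leukocyte, macrophage and dendritic cell markers averaged higher in both transplants than in the kidneys. The mean level of 3 leukocyte markers was 0.71 in the 2-week and 0.47 in the 4-week transplant, against -2.44 in the E13.5, -1.93 in the P0 and -1.50 in the 8-week kidney, with all 3 well above background on all arrays. That of 8 macrophage markers was 2.02 and 1.32 in the 2-week and 4-week transplants, against -2.19, -1.35 and -1.66 in the E13.5, P0 and 8-week kidneys. By their means both lists set the transplants above every kidney. The macrophage marker Fcgr1 differed from its list, at -4.51 and -5.20 in the 2-week and 4-week transplants. Its levels were -4.38, -4.64 and -4.44 in the E13.5, P0 and 8-week kidneys. The mean level of 7 dendritic cell markers was -2.73 and -2.52 in the 2-week and 4-week transplants, against -6.23, -6.50 and -4.07 in the E13.5, P0 and 8-week kidneys. Itgax, Clec9a and Cd209a were not well above background in the E13.5 and P0 kidneys but were so in both transplants and the 8-week kidney, the same arrays as for H2-Aa. Xcr1 was not well above background on any array. Zbtb46, a transcription factor of conventional dendritic cells, ran otherwise, with levels of -3.08 in the 2-week and -3.83 in the 4-week transplant, against -3.08 in the E13.5, -2.29 in the P0 and -4.21 in the 8-week kidney, and was highest in the P0 kidney.

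Lymphocyte markers differed less. The mean level of 6 B cell markers was -5.49 in the 2-week and -5.52 in the 4-week transplant, against -5.70 in the E13.5, -5.37 in the P0 and -4.27 in the 8-week kidney. Pax5, which sets B cell identity, was not well above background in either transplant or in the E13.5 and P0 kidneys. Cd79b, a chain of the B cell receptor complex, was well above background on all arrays, with levels of -0.21 in the 2-week and -1.14 in the 4-week transplant, against -1.54 in the E13.5, -0.26 in the P0 and -2.50 in the 8-week kidney, so it was 4.87-fold and 2.57-fold higher than in the 8-week kidney. The mean of 6 T cell markers was -2.74 and -2.82 in the 2-week and 4-week transplants, against -3.40, -3.23 and -2.35 in the E13.5, P0 and 8-week kidneys. The mean of 4 NK cell markers was -4.00 and -4.01 in the transplants, with all 4 well above background. It was -6.26, -5.74 and -5.55 in the E13.5, P0 and 8-week kidneys, where only 1, 2 and 1 of them were. With dim values at their bounds, the median difference from the 8-week kidney was 0.57 and 0.64 (log2). Prf1, well above background on all arrays, had levels of -2.43 and -2.20 in the transplants, against -2.01, -2.05 and -2.50 in the E13.5, P0 and 8-week kidneys. Neutrophil markers averaged 0.92 and 2.10 in the transplants, against -2.46, 0.32 and -1.27 in those kidneys, but the 5 markers did not run alike. Relative to the 8-week kidney, S100a8, S100a9 and Mpo were at least 4-fold higher in both transplants. Ly6g was 4.41-fold and 4.26-fold lower in the 2-week and 4-week transplants, and Csf3r 1.10-fold and 1.91-fold higher. S100a8 was alike in the 2-week transplant (0.32) and the P0 kidney (0.35). What part these cells have in the levels of the members was not tested.

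**Figure D4:**
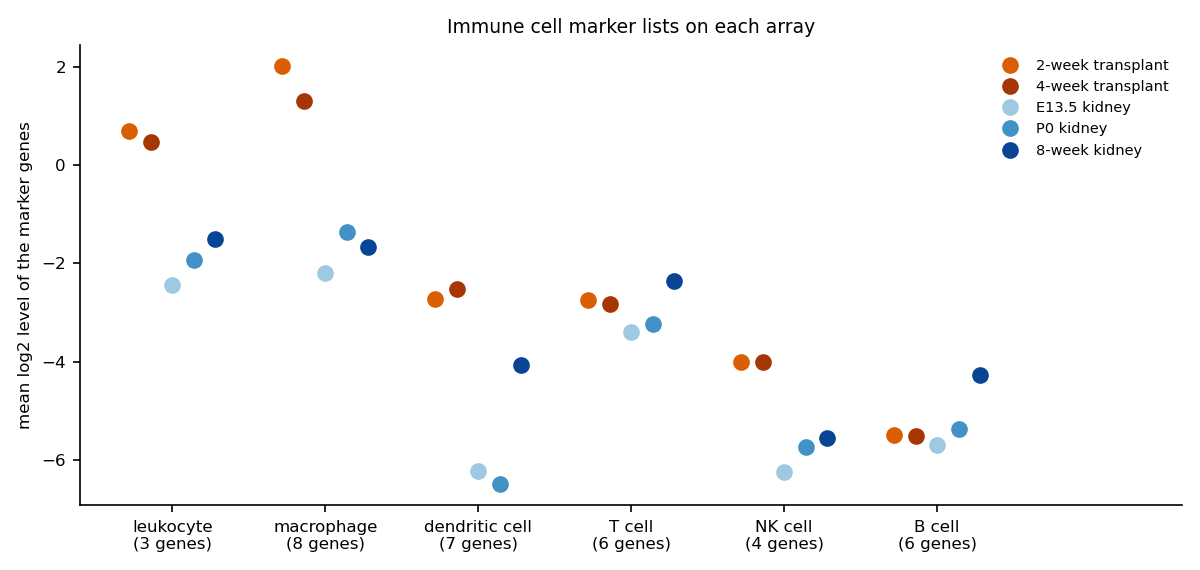
Mean log2 level of 6 lists of immune cell markers on each array, transplants (orange) left of the kidneys (blue). The transplants lie highest in the leukocyte (0.71 and 0.47), macrophage (2.02 and 1.32), dendritic cell (-2.73 and -2.52) and NK cell (-4.00 and -4.01) lists, while the 8-week kidney lies highest in the T cell (-2.35) and B cell (-4.27) lists. The means include markers that were not well above background. Of 4 NK cell markers, 1, 2 and 1 were well above background in the E13.5, P0 and 8-week kidneys.

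Tissue identity differed as well. Endothelial markers, whose cells express class I strongly, averaged 0.49 in the 2-week and 0.18 in the 4-week transplant, against -0.59, 0.11 and -0.48 in the E13.5, P0 and 8-week kidneys. Proximal tubule markers averaged 0.17 and -1.50 in the 2-week and 4-week transplants, against -4.82 in the E13.5, 3.05 in the P0 and 6.63 in the 8-week kidney. Podocyte markers, which check the kidney label, averaged 1.52 and 0.65 in the transplants, against -4.13, -0.36 and -0.10 in the E13.5, P0 and 8-week kidneys. Adipocyte markers averaged 2.14 and 3.59 in the transplants, and 3 or 4 of the 4 were not well above background in each kidney. The part of these differences in the members' levels was not tested.

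Genes outside these lists with the profile most like each class were found by the root mean square difference from the mean centred profile of its members over the 5 arrays, among 15047 genes. For class II they were Stap1 (0.27), Cd207 (0.29), H2-M2 (0.33), Zmynd15 (0.37) and Ces2g (0.38). For class I they were Ifit1 (0.12), Eva1c (0.21), Gbp7 (0.24), Irgm2 (0.26) and Lgals3bp (0.27). Dim values entered as read, without bounds. Stap1, Cd207 and Ces2g were not well above background in the E13.5 and P0 kidneys, and Ifit1 and Gbp7 not in the E13.5 kidney. Their likeness on those arrays therefore rests on values near background. Cd207 encodes langerin of Langerhans cells and some dendritic cells, and Ifit1, Gbp7 and Irgm2 are interferon-induced genes. Among the members themselves the distance to the class mean ran from 0.35 (H2-Eb1) to 1.97 (Ciita) in class II and from 0.28 (H2-K1) to 0.81 (H2-D1) in class I.

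Class I heavy chain genes are near copies of each other, and probes for one may bind another. Probes named H2-K2, H2-Q2, H2-Q7, H2-Q8 and H2-Q10 had differences of 5.09 to 6.61 in the 2-week and 5.75 to 6.72 in the 4-week transplant from the E13.5 kidney (log2). Which copy each signal comes from is uncertain. Of 27 other genes with an H2 name, 10 were at least 4-fold higher in each transplant than in the E13.5 kidney, over 15 measured at 2 weeks and 16 at 4 weeks. The shares over all genes were 11.3% and 12.7%. Against the 8-week kidney 2 of 18 measured were at least 4-fold higher in each transplant, where 11.8% and 11.7% of all genes were, and 2 in the 2-week and 1 in the 4-week transplant were at least 4-fold lower, where 8.67% and 7.8% of all genes were. Not every copy ran alike. H2-Q5 had levels of 0.85 in the 2-week and 1.22 in the 4-week transplant, against -3.00, -3.23 and -2.94 in the E13.5, P0 and 8-week kidneys, so the kidney ages lay close together. H2-Q4, from the list of other class I pathway genes, had levels of 3.85 in the 2-week and 5.69 in the 4-week transplant. Its levels were 4.67, 3.13 and 3.25 in the E13.5, P0 and 8-week kidneys, so the 2-week transplant lay below the E13.5 kidney. H2-Q5 and H2-Q4 were named after their values were seen.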

How the data were processed

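RNA of 5 tissues was hybridised to 1 one-colour array each. The deposited scanner files hold, per the file headers, an intensity for each spot after background subtraction, and outlier, saturation and detection flags. Agilent Feature Extraction 10.7.3.1 is named in the submitters' processing notes. The authors' deposited gene table holds log2 values. Its title names a 75th percentile shift, but 99.6% of its values lay within 0.01 of the unshifted log2 intensity, taken as the mean over probes and centred by row, and 18.2% of the shifted one. The level is log2 intensity minus log2 of the 75th percentile of the 43020 non-control spots. Outlier spots (447) were left out and none was saturated. Of 39414 probes, 5588 stayed unnamed. The probe with the highest mean over the 5 arrays stood for its gene.

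With 1 array per group no test was made. Differences are compared with 4-fold, and genes dim on both arrays were not compared. The files give no counts, so precision rests on signal over background and on repeated spots. The design's grid is on mm9, so no array coordinates are given. All 10 members were named, the genes of preset pathway and marker lists where they bear on them, and the 5 genes most like each class mean among genes well above background on at least 3 arrays. Some list genes are not reported here by name. The members and lists were chosen with earlier results of these data known. The samples are not said to come from separate animals. Alternatives were normexp background correction with an offset of 50 (limma 3.58.1, R 4.3.3, on median signals, with and without the 153 negative control spots), quantile normalization, the deposited table, averaging probes, no bound for dim probes and a 2-fold threshold. Other steps used Python 3.11.15, pandas 2.3.3 and numpy 2.4.6.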

Additional observations from a re-analysis of the deposited data

Results flagged for a closer look

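H2-Ea was measured by 1 probe in data outside the comparisons of the 10 members. In the 8-week kidney its level was -1.96, at least 15.3-fold (3.93 on the log2 scale) over the highest background bound of the other 4 arrays, which are 2 transplants and 2 kidneys. No reason for it was tested.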

How the results depend on the processing

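No member that differed by at least 2-fold changed direction under any setting tried. Where H2-Aa or Tap1 was dim on 1 array, its bound was not allowed to turn the direction. In settings that use bounds these differences could therefore not change direction. At a 2-fold threshold the number of class I members past it was 4 (2-week transplant against 8-week kidney), 5 (4-week transplant against 8-week kidney) and 3 (8-week against P0 kidney), and that of class II members 4, 4 and 5, with 1 for P0 against E13.5 kidney. Normexp gave 1 class I member at 4-fold for the 2-week transplant against the 8-week kidney, with or without negative controls, and 2 class I members and 1 class II member for P0 against E13.5 kidney. Class II members past 4-fold against the 8-week kidney were 4 in each transplant under quantile normalization, and 3 (2-week) and 4 (4-week) in the authors' table, which moves the median of all genes against that kidney by 0.50 and 0.36. The class II minus class I median under normexp was 1.55 (2-week transplant against E13.5), 1.21 (4-week transplant against E13.5), 1.21 (4-week transplant against P0), 0.12 (4-week transplant against 8-week) and 1.15 (8-week against P0 kidney). With negative controls it was 1.49 (4-week transplant against P0) and 1.38 (8-week against P0 kidney). Averaging probes gave 0.54 (4-week transplant against 8-week) and 0.76 (4-week transplant against E13.5). The cause of these shifts was not tested. Members with both transplants above all 3 kidneys numbered 8 to 10 over the settings, chosen after seeing the data, and 10 without the 8-week kidney. The slide could not be fitted as a block with 1 array per group. No paired analysis was possible because each group has 1 array.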
